A study of Mus musculus with 16 samples.

Results

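CpGs that gained methylation from an unmethylated parent were followed in clonal lines of immortalised mouse embryonic fibroblasts. They were chosen by their own levels, that is, by a level under 10% on 20 or more reads in the parental line and of 60% or more in at least 1 clonal line of the same family. The level is the percentage of reads called methylated. Of 1203687 CpGs measured in all libraries, 439493 passed the parental criterion in MEF-1 and 447428 in MEF-2, and these are called low-parent CpGs. Among them 4631 gained methylation in MEF-1 (1.05%) and 6800 in MEF-2 (1.52%), which is 11294 CpGs in all, with 137 that gained in both families. Because parental and clonal levels of the own family chose the CpGs, those levels are given without a test.

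Target capture bisulfite sequencing was applied to a pair of parental cultures and to 14 lines grown from single sorted cells of them. The cells are C57BL/6J fibroblasts of E13.5 embryos that were passaged until they grew on past crisis, and no edited allele or drug is named for any group used here. The 2 embryos were related, that of MEF-1 being male and that of MEF-2 female. Each parental culture was sequenced once, and each gave 7 clonal lines, which together with it are called a family. All lines of a family descend from 1 embryo and 1 culture, so p-values over lines measure the spread within that culture, and embryo, sex and culture history cannot be told apart. The CpGs lay on 16 chromosomes, and each library held 38485592 to 57348851 calls there, with a median of 26 to 39 reads per CpG.

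In mammalian cells methylation is copied to the new strand after replication by Dnmt1 and is added anew by Dnmt3a and Dnmt3b, while Tet enzymes start its removal. CpG islands, which are dense in CpGs and often hold promoters, are mostly kept free of it. A line grown from 1 cell shows the state that its founder passed on, together with changes during expansion, whereas a parental culture averages over many cells.

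Most gains were isolated, and few formed runs. A run is 3 or more consecutive measured CpGs that all gained in a shared line, at most 200 bp apart. To show what such a stretch looks like, the 3 runs of each family with the most CpGs (ties by longer span) are printed from the GRCm38 (mm10) reference, 5′ to 3′ on the plus strand, with the gaining CpGs in capitals and any stretch of untranslated exon left out. The MEF-1 windows are chr5:30775033-30775232 in an intron of Dpysl5, chr13:25270083-25270241 at Nrsn1 and chr4:141664433-141664632 in Plekhm2. The MEF-2 windows are chr6:52234980-52235179 at Hoxa10, chr5:66676587-66676786 at Uchl1 and chr9:108824551-108824750 upstream of Celsr3. The last line shows the CpG that gained in the most MEF-1 lines, with a second gaining CpG nearby, at chr9:31914513-31914612 upstream of Barx2.
Dpysl5, MEF-1: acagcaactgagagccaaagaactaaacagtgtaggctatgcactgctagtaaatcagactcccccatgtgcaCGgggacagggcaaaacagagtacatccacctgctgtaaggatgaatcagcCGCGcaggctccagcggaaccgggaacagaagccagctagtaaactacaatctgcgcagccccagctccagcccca
Nrsn1, MEF-1: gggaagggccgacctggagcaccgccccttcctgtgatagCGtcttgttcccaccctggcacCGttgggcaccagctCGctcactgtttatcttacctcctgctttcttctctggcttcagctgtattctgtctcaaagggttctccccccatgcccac
Plekhm2, MEF-1: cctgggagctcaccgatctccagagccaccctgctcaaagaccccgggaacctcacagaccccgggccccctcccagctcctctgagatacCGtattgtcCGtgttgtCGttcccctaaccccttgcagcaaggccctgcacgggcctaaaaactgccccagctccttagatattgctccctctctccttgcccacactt
Hoxa10, MEF-2: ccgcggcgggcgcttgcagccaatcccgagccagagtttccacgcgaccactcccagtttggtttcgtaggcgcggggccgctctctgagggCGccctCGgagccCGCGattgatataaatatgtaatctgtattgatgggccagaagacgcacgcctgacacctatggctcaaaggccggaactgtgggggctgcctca
Uchl1, MEF-2: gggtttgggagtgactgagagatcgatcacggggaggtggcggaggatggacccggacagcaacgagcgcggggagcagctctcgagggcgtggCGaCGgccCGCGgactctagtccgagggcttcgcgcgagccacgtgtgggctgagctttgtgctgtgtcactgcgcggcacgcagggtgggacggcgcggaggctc
Celsr3, MEF-2: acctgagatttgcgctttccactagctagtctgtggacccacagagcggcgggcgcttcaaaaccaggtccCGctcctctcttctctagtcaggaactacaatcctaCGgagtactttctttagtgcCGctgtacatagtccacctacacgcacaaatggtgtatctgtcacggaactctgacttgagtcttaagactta
Barx2, MEF-1: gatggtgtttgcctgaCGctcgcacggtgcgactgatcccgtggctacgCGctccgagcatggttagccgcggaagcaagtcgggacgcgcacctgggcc
The Dpysl5 window had 6 reference CpGs and the Uchl1 window 24, so runs occurred in sparse and in dense sequence. In the Hoxa10 window 4 of 12 low-parent CpGs gained, and in the Uchl1 window 4 of 18.

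Gains were counted per clonal line first, to ask how evenly they were spread. MEF-1 lines 1 to 7 had 245, 1051, 1095, 154, 187, 1003 and 1466 gaining CpGs, which is 0.0350% (line 4) to 0.334% (line 7) of the low-parent CpGs of the family. MEF-2 lines 1 to 7 had 1317, 1128, 452, 1398, 1266, 1015 and 988, or 0.101% (line 3) to 0.312% (line 4). MEF-1 lines 1, 4 and 5 were thus the lowest of all 14, followed by MEF-2 line 3. These are values that the rule used. The mean level over all low-parent CpGs ranged from 3.02 to 3.54% in the MEF-1 lines and from 2.90 to 3.13% in the MEF-2 lines.

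**Figure D1:**
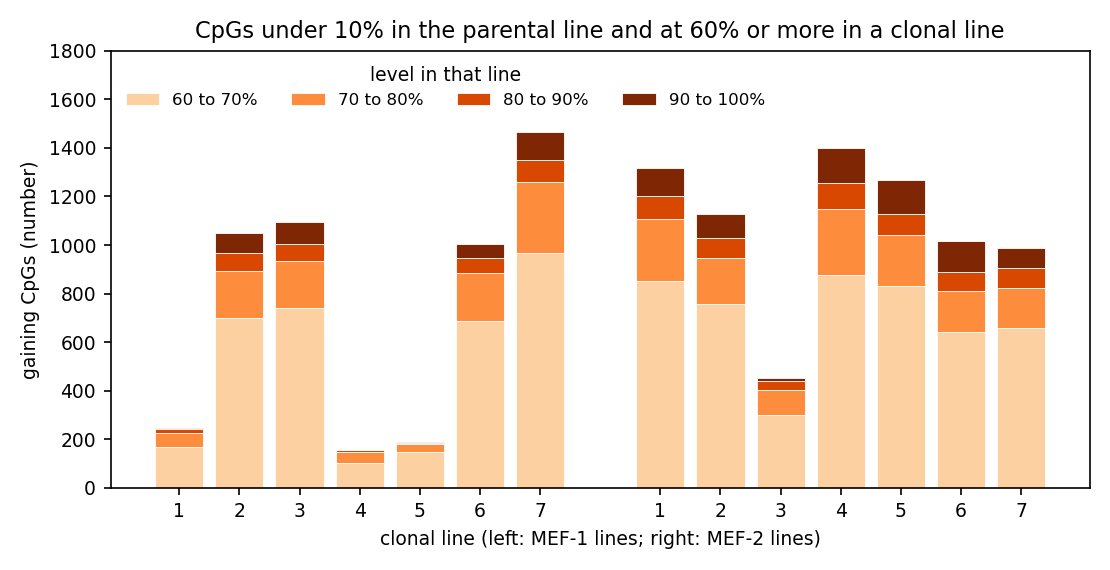
Number of gaining CpGs in each clonal line, MEF-1 lines on the left and MEF-2 lines on the right, with each bar divided by the level of the CpG in that line. MEF-1 lines 1, 4 and 5 had 154 to 245 gaining CpGs, and lines 2, 3, 6 and 7 of MEF-1 had 1003 to 1466.

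Most gains stayed below full methylation. Over all lines, 67.6% of the 5201 gaining MEF-1 calls and 65.0% of the 7564 of MEF-2 lay at 60 to 70%, where a call is 1 CpG in 1 line. Levels of 90% or more made up 6.75% (351 calls) and 9.51% (719 calls). By line this share ran from 0% (MEF-1 line 4) to 12.4% (MEF-2 line 6), and it was 2.88% in MEF-2 line 3. Gaining calls had a median of 25 reads in each family, against 30 over all clonal calls at low-parent CpGs. The 95% Wilson interval of the level lay above 50% for 36.2% of the gaining MEF-1 calls and for 37.2% of those of MEF-2, so the depth did not separate the majority of single calls from an intermediate state. With clonal libraries thinned to 10 reads per CpG the rule returned 10120 and 15578 CpGs, more than at full depth. It returned 1599 and 2021 where all libraries had 20 or more reads, a setting added once the data had been seen. That setting also leaves fewer low-parent CpGs, so its lower counts do not show a lower share.

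Just inside the clonal threshold, 1022 MEF-1 and 1509 MEF-2 CpGs had their highest line at 60 to 62%, with mean parental levels of 4.70 and 5.02%. Just outside it, 754 and 1235 CpGs had their highest line at 58 to 60%, with mean parental levels of 5.10 and 5.09%. At the parental threshold, 533 and 901 gaining CpGs had a parental level of 9% or more. A further 586 and 922 CpGs had a clonal line at 60% or more but a parental level of 10 to 11%.

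The parental level of gaining CpGs was 5.10% on average in MEF-1 and 5.22% in MEF-2, against 2.34 and 2.17% at low-parent CpGs that did not gain. Of low-parent CpGs with 0 methylated parental reads, 0.379% gained in MEF-1 and 0.498% in MEF-2. At a parental level over 7.5% the shares were 4.16 and 6.78%. CpGs with 0 methylated parental reads made up 16.8% of the gaining CpGs of MEF-1 (780 CpGs) and 16.1% of those of MEF-2 (1094 CpGs).

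The clonal lines that did not gain were mostly low at the same CpG. At gaining CpGs, 62.4% (MEF-1) and 68.3% (MEF-2) of the other calls were under 10%, and 8.91 and 9.33% were at 40 to 60%. At low-parent CpGs that did not gain, 92.9 and 94.2% of calls were under 10%. At 657 gaining CpGs of MEF-1 and at 1411 of MEF-2 all other 6 lines of the family were under 10%. Among these, 22 and 91 CpGs had the gaining line at 90% or more.

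A single line carried the gain at 4153 CpGs in MEF-1 (89.7%) and at 6128 in MEF-2 (90.1%). A pair of lines shared it at 395 and 592 CpGs, 3 lines at 75 and 69, 4 lines at 7 and 10, and 5 lines at 1 CpG in each family. No CpG gained in 6 or 7 lines. Sharing was uneven between pairs of MEF-1 lines. Lines 3 and 7 had 178 gaining CpGs in common, which is 16.3% of those of line 3 and 12.1% of those of line 7. Lines 2 and 7 shared 143 (13.6 and 9.75%) and lines 2 and 3 shared 116 (11.04 and 10.6%). No other MEF-1 pair shared more than 40, but lines 1, 4 and 5 had fewer gaining CpGs to share. The 15 that lines 1 and 4 had in common were 6.12% of those of line 1 and 9.74% of those of line 4. For comparison, single MEF-1 lines gained at 0.0350 to 0.334% of all low-parent CpGs. In MEF-2, shared CpGs ranged from 17 (lines 3 and 6) to 87 (lines 2 and 7, 7.71 and 8.81%).

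The CpGs with the most gaining lines were then read one by one. The MEF-1 CpG at chr9:31914562 was intergenic, 1100 bp before the start of Barx2, a homeobox factor of muscle differentiation. Its parental level was 5.88% on 34 reads (95% Wilson interval 1.63 to 19.1%), and lines 1 to 7 had 65.2, 63.0, 56.0, 78.6, 51.2, 66.7 and 70.97%. All 7 lines were therefore above 50%, although the rule counts 5. In the MEF-2 family this CpG had 10.6% in the parental line and 0 to 36.4% in the clonal lines (median 11.8%).

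An intron of Gsg1, a germ cell gene, held the next MEF-1 CpG, at chr6:135252925. Its levels were 71.4, 74.1, 100% and 93.8% in lines 2, 3, 6 and 7 and 3.13 to 5.13% in lines 1, 4 and 5, with 9.09% on 33 reads in the parental line. At chr17:46771962, in an intron of the non-coding Gm26904, lines 2, 3, 6 and 7 had 93.3, 100%, 88.9 and 100% and lines 1, 4 and 5 had 0 to 7.14%, with 3.57% on 28 reads in the parental line. Lines 1, 4 and 5 stood apart from the other lines at both CpGs.

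In MEF-2 the CpG at chr13:65590603, in an exon of the non-coding Gm26639, gained in 5 lines. Its levels were 70%, 81.1, 10.7, 76.9, 66.7, 20% and 80.95% in lines 1 to 7, with 4.76% on 42 reads in the parental line (Wilson interval 1.32 to 15.8%). At chr5:111123488, in an intron of Ttc28, lines 1 to 7 had 53.6, 68%, 16%, 18.5, 95.2, 68.3 and 61.8% and the parental line 8.11% on 37 reads. The MEF-1 lines were also methylated at this CpG, from 43.2 to 97.7% (median 64.1%). At chr15:44458235, in an intron of Pkhd1l1, lines 2, 3, 4 and 7 reached 60 to 68.4%, line 5 had 46.7% and lines 1 and 6 had 0 and 3.45%.

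Runs held a small share of the gains. There were 5 runs in MEF-1 with 15 CpGs (0.324% of gaining CpGs, longest 3) and 13 in MEF-2 with 41 CpGs (0.603%, longest 4). Without MEF-1 line 3 or line 6 there were 3 MEF-1 runs. Counting also pairs of consecutive CpGs, 227 MEF-1 CpGs (4.90%) and 551 MEF-2 CpGs (8.10%) had a gaining neighbour in the same line. For comparison, 0.169 and 0.242% of all clonal calls at low-parent CpGs were gains. Every run had 1 shared gaining line. CpGs of a run lie close enough to be read on the same DNA fragments, so they are not independent measurements. Read counts given for a whole run are summed over its CpGs, and 1 read can count at several of them. Wilson intervals of such sums treat the counts as independent and are too narrow where reads span several CpGs. Levels given for a run are means over its CpGs or pooled over their reads, and other lines could be higher at single CpGs.

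The Hoxa10 run, at chr6:52235072-52235087, lay in an intron 140 bp before the nearest transcript start of Hoxa10, a homeobox factor of posterior body identity. MEF-2 line 4 had 95.2% on average over its 4 CpGs (77 of 81 reads methylated). Read by CpG, line 4 had 22 of 22, 17 of 21, 20 of 20 and 18 of 18 reads methylated, where the parental line had 0 of 38, 3 of 37, 2 of 32 and 1 of 32. The parental level pooled over the 4 CpGs was 4.32% (95% Wilson interval 1.99 to 9.10%, too narrow where reads span several CpGs). The other MEF-2 lines had 2.75 to 29.0% (median 12.7%), and the MEF-1 lines 1.67 to 13.6% (median 3.64%). Line 4 was alone at a high level as a mean over the run. By CpG, the highest other MEF-2 line had 48.6, 45.5, 47.6 and 20%.

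At Uchl1, which encodes a ubiquitin hydrolase abundant in neurons, the 4 CpGs of chr5:66676681-66676691 lay in an exon of a non-coding transcript 206 bp before the nearest start and had 23 other CpGs within 100 bp. MEF-2 line 4 had 64.9% (74 of 114 reads, summed over the CpGs) and the other MEF-2 lines 0 to 8.69% (median 1.72%). The parental line, with 45 reads at each CpG, had 3.89% (pooled Wilson interval 1.90 to 7.81%, too narrow in the same way). The MEF-1 lines had 0 to 10.4%. No other line of either family came near the level of line 4.

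Among the remaining MEF-2 runs named, that of chr9:108824622-108824678 lay in the non-coding Gm35025, 1670 bp before Celsr3, an atypical cadherin of axon guidance. Line 7 had 85.0% (133 of 156 reads), against 5.41 to 22.1% in the other lines and 3.65% in the parental line. At chr7:89499859-89499905, intergenic and nearest to the serine protease gene Prss23, line 4 had 72.9% and the others 1.52 to 16.9%. In an intron of Rin2, a regulator of Rab5, line 1 had 71.6% and the others 1.45 to 36.8% (chr2:145832513-145832536). The run in a coding exon of Gata2, a transcription factor of blood stem cells, was the exception in its other family (chr6:88199595-88199616). Line 5 had 74.4%, the other MEF-2 lines 5.77 to 47.5% and the MEF-2 parental line 7.41%. The MEF-1 parental line had 60.8% and its clonal lines 38.5 to 79.7% (median 48.9%). At single CpGs another MEF-2 line reached 59.3% in the Celsr3 run, 60% in the Rin2 run and 61.1% in the Gata2 run.

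MEF-1 had 5 runs of 3 CpGs. In Dpysl5, a cytosolic protein of growing axons, line 3 had 72.6% (97 of 135 reads), the other lines 0 to 19.7% and the parental line 1.72% (chr5:30775106-30775159). Nrsn1, a membrane protein of neuronal vesicles, had its run 59 bp before a transcript start (chr13:25270123-25270160). Line 6 had 76.9% there (41 of 54 reads, summed over the CpGs) and the other lines 1.28 to 15.3%. The parental line had 0 methylated reads of 26, 23 and 23 at the 3 CpGs. In Plekhm2, a linker of lysosomes to kinesin, line 6 had 67.1% against 0 to 12.9% in the other lines (chr4:141664524-141664541).

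The Hoxa11 run lay in coding sequence 196 bp after the start, and in an exon of the antisense gene Hoxa11os (chr6:52245595-52245603). Line 7 had 84.1% (47 of 56 reads) and the other lines reached 68.3%, in line 3, with a median of 12.99%. In MEF-2 the same CpGs had 12.4% in the parental line and 0 to 4.44% in the clonal lines. The run shared by Slc25a23 and Crb3 (chr17:57059589-57059595) had 60% in line 3, which is at the threshold, and 0 to 7.52% in the other lines. Each of its 3 CpGs had 9 of 15 reads methylated in line 3.

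**Figure D2:**
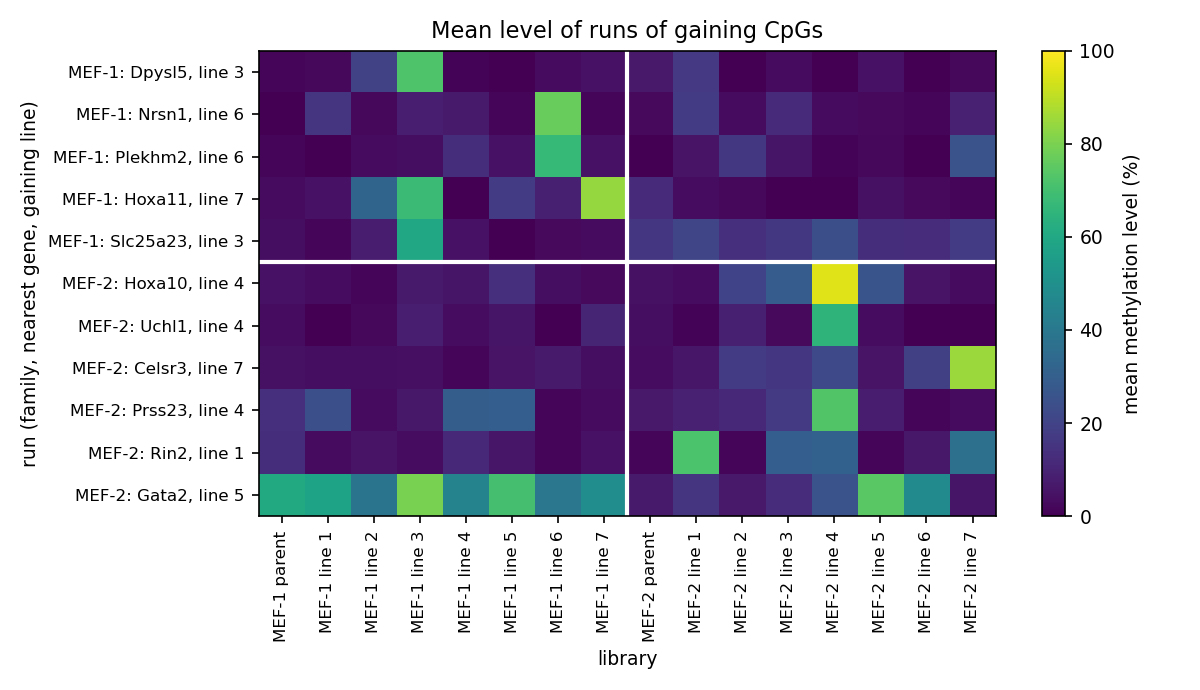
Mean methylation level (%) of the 5 MEF-1 runs and of the first 6 MEF-2 runs in all 16 libraries, 1 row per run, labelled by family, nearest gene and gaining line. Each run is high in its gaining line, the Hoxa11 run is also high in MEF-1 line 3 (68.3%), and the Gata2 run is high in the MEF-1 libraries (60.8% in the parental line).

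Neighbouring low-parent CpGs were examined to ask how far a gain reached. The level of each neighbour in the gaining line was set against its level in those lines of the family where the gaining CpG itself was under 10%. At 1 to 10 bp the neighbours had 17.2% in the gaining line and 6.13% in the low lines of MEF-1, a difference of 11.04 points ± 1.58 (SD over lines, n = 7). In MEF-2 they had 20.9 and 6.14%, a difference of 14.7 points ± 2.18. At 26 to 50 bp the difference was 2.03 points ± 0.625 and 2.66 points ± 0.752, and over 500 and up to 1000 bp it was 0.217 points ± 0.419 and 0.269 points ± 0.326. Up to 51 to 100 bp all 14 lines had a positive difference. The share of neighbours at 1 to 10 bp that were themselves at 60% or more in the gaining line was averaged over lines. It was 7.88% ± 2.81 (MEF-1) and 12.5% ± 3.56 (MEF-2) (SD over lines, n = 7). Over 500 and up to 1000 bp these mean shares were 0.325% ± 0.291 and 0.781% ± 0.213. Of all clonal calls at low-parent CpGs, 0.169 and 0.242% were gains. Fragments averaged about 200 bp, so near neighbours shared reads with the gaining CpG, and these differences were not tested.

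**Figure D3:**
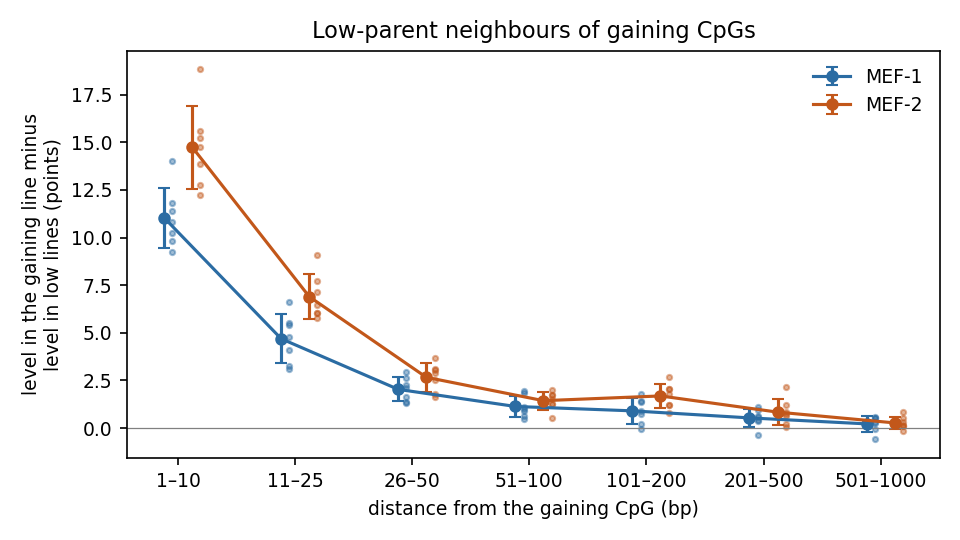
Level of low-parent CpGs in the gaining line minus their level in lines where the gaining CpG was under 10% (percentage points), by distance from the gaining CpG in bp. Large points are means over 7 lines with SD bars and small points are single lines. The difference falls from 11.04 (MEF-1) and 14.7 points (MEF-2) at 1 to 10 bp to 0.217 and 0.269 points over 500 and up to 1000 bp.

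How the same CpGs stood in a line that had no part in choosing them was described by leaving out each line in turn, an analysis chosen after seeing the data. CpGs chosen on the other 6 MEF-1 lines had 14.8% ± 5.19 in the left-out line, against 3.12% ± 0.143 at low-parent CpGs not chosen (SD, n = 7), a difference of 11.7 points ± 5.12. For MEF-2 the levels were 13.1% ± 1.19 and 2.85% ± 0.101, a difference of 10.3 points ± 1.19. MEF-1 lines 2, 3 and 7 had differences of 16.2, 16.99 and 18.1 points, while the other 4 lines had 6.88 to 8.05 points. With CpGs of 0 methylated parental reads only, the differences were 8.77 points ± 4.55 and 7.08 points ± 1.06. A level of 60% or more in the left-out line was reached by 3.97% ± 3.34 of the chosen MEF-1 CpGs and by 3.49% ± 0.770 of those of MEF-2, against 0.136 and 0.198% of the CpGs not chosen. The 7 choices of a family overlap in their lines and share their parental values, so these differences are not independent, a sign-flip test over them is void, and no p-value is given.

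The other family was then examined, since its libraries had no part in the rule. The MEF-2 parental line had a mean level of 21.8% at the gaining CpGs of MEF-1, against 5.41% at low-parent CpGs of MEF-1 that did not gain. The MEF-1 parental line had 18.2% at the gaining CpGs of MEF-2, against 5.59%. Of the MEF-1 gaining CpGs, 58.6% had 10% or more in the MEF-2 parental line, where 13.9% of all low-parent CpGs did. Of the MEF-2 gaining CpGs, 45.4% had 10% or more in the MEF-1 parental line, against 13.2%. At 60% or more the shares were 8.44% (391 CpGs) against a background of 1.1%, and 7.01% (477 CpGs) against 1.28%.

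Clonal lines of the other family gave the replicates. In the 7 MEF-2 clonal lines the gaining CpGs of MEF-1 had 23.7% ± 0.806 and the other low-parent CpGs 5.67% ± 0.158 (SD, n = 7), a difference of 18.0 points ± 0.681. All 7 lines had a positive value (exact sign-flip test, two-sided, p = 0.0156, adjusted p = 0.0156 over the families, the smallest possible). In the 7 MEF-1 clonal lines the gaining CpGs of MEF-2 had 19.4% ± 0.455 and the others 5.61% ± 0.187, a difference of 13.8 points ± 0.387, positive in 7 of 7 lines (exact sign-flip test, p = 0.0156, adjusted p = 0.0156). Lines of the 2 sets did not overlap, and the difference was 4.26 points larger for the gaining CpGs of MEF-1 (two-sided exact permutation test of 7 against 7 lines, p = 0.000583). The 2 sets differed in both CpGs and culture, so this p-value measures the spread of lines within these cultures. It cannot show a difference between families in general. Both tests that use MEF-1 lines as replicates may give too small a p-value, because these lines shared gaining CpGs, lines 2, 3 and 7 the most in number. The differences were 13.7 and 10.3 points among CpGs with 0 methylated parental reads, a stratum added once the data had been seen. Among CpGs with under 10 others within 100 bp they were 18.6 and 15.2 points. In the other parental line, such gaining CpGs had 25.4% (MEF-1) and 22.5% (MEF-2), against 7.87 and 8.09% without a gain. With 10 or more others the levels were lower, at 14.4 and 12.1% against 2.93 and 3.15%.

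**Figure D4:**
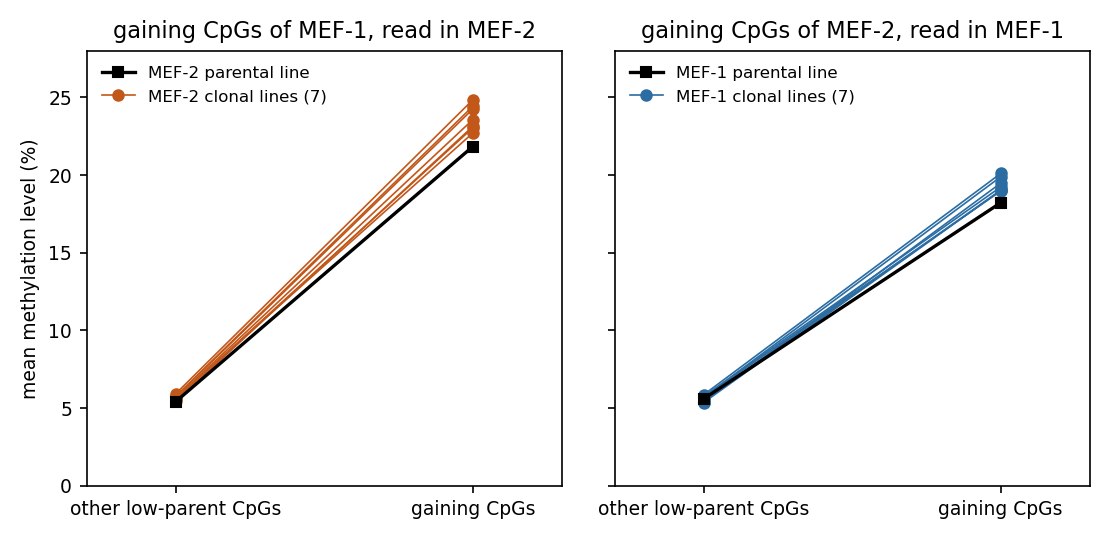
Mean methylation level (%) in the libraries of the other family at low-parent CpGs that did not gain and at gaining CpGs, with 1 line per library. Gaining CpGs of MEF-1 had 22.7 to 24.8% in the MEF-2 clonal lines and those of MEF-2 had 18.96 to 20.1% in the MEF-1 clonal lines, against 5.35 to 5.92% at the other CpGs.

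All 8 libraries of the other family were under 10% at 674 gaining CpGs of MEF-1 (14.6%) and at 1308 of MEF-2 (19.2%), against 67.4 and 64.8% of low-parent CpGs that did not gain. All 7 clonal lines of the other family were at 60% or more at 158 (3.41%) and 203 (2.99%), against 0.351 and 0.450% of those that did not gain. The share of low-parent CpGs that gained was higher at each step of the level of the other parental line. In MEF-1 it was 0.507% ± 0.0851 (SD over 16 chromosomes) where the MEF-2 parental line was under 10%, 4.74% ± 1.03 at 20 to 40% and 9.20% ± 3.15 at 90 to 100%. In MEF-2 the shares were 0.957% ± 0.122, 4.70% ± 0.578 and 9.88% ± 3.96. Some neighbouring steps differed by less than this spread, such as 4.31% ± 0.643 at 10 to 20% against 4.70% at 20 to 40% in MEF-2. CpGs that were low-parent in both families numbered 360038. Of these, 0.929% gained in MEF-2, and of the 1779 that gained in MEF-1, 7.70% gained in MEF-2 as well.

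CpG density, the number of other reference CpGs within 100 bp, was lower at gaining CpGs. It averaged 8.00 at gaining CpGs of MEF-1 against 10.5 at other low-parent CpGs, and 9.13 against 10.6 in MEF-2. Over the 16 chromosomes MEF-1 had a difference of −2.51 CpGs ± 0.721 and MEF-2 of −1.49 CpGs ± 0.623 (SD, n = 16), lower on 16 of 16 chromosomes in each. The two-sided exact sign-flip test gave p = 3.05e-05, the smallest possible, with an adjusted p of 4.07e-05 over 8 tests. Chromosomes belong to the same libraries of 1 culture per family, so this p-value and those for annotation below measure evenness along 1 genome, not replication. In MEF-2 the difference shrank to −0.756 where the parental line had 40 or more reads, and to −0.892 where all libraries had 20 or more, the latter chosen after seeing the data. The share that gained was 1.22% ± 0.695 for MEF-1 and 1.37% ± 0.412 for MEF-2 with 0 other CpGs (SD over chromosomes), 1.63% ± 0.321 and 1.88% ± 0.417 at 1 to 2, and 1.65% ± 0.267 and 2.02% ± 0.219 at 3 to 5. The values at 1 to 2 and at 3 to 5 differ by less than the spread. Those with 0 other CpGs were the lowest of these classes in both families, in MEF-1 by less than their own spread. The share was 0.592% ± 0.243 and 0.981% ± 0.365 at 20 or more.

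**Figure D5:**
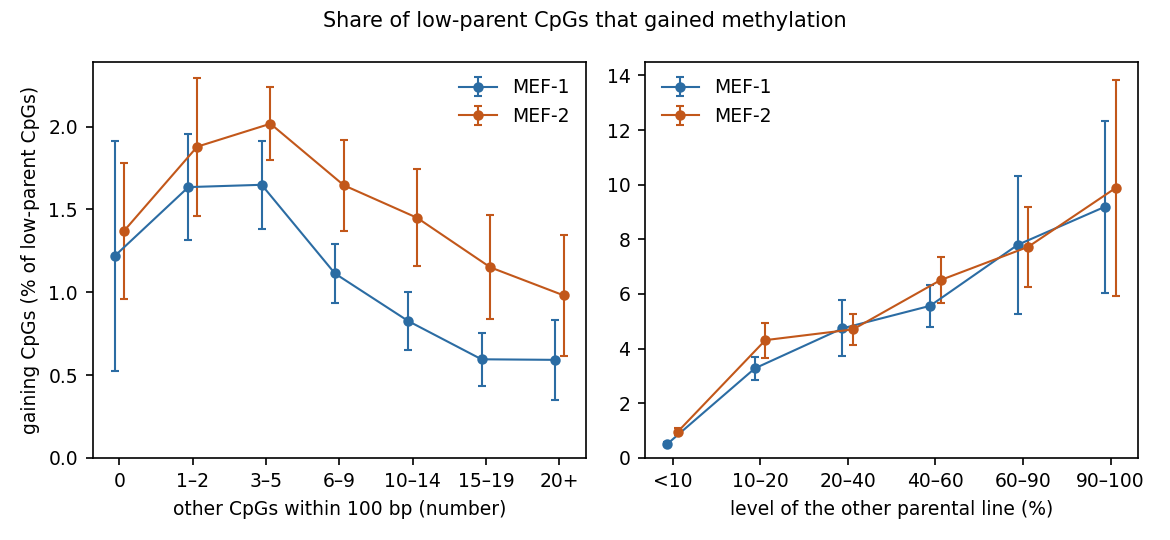
Percentage of low-parent CpGs that gained methylation, by the number of other CpGs within 100 bp (left) and by the level of the other parental line in % (right). Points are the share over all chromosomes and bars the SD over 16 chromosomes. The share is 1.22% (MEF-1) and 1.37% (MEF-2) with 0 other CpGs, 1.65 and 2.02% at 3 to 5 and 0.592 and 0.981% at 20 or more, and it climbs from 0.507% (MEF-1) and 0.957% (MEF-2) to 9.20 and 9.88% with the level of the other parent.

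Gaining CpGs were less often in promoters, taken as the 1000 bp upstream of protein-coding transcripts. Promoters held 21.4% of gaining CpGs in MEF-1 (989 CpGs) and 23.1% in MEF-2 (1574 CpGs), against 40.1 and 40.6% of other low-parent CpGs. Over chromosomes the difference was −18.9 points ± 3.08 and −17.4 points ± 2.74 (SD, n = 16). The intergenic share, outside promoters and transcripts of protein-coding genes, was 29.8 and 26.6% against 18.4 and 18.1%, a difference of 11.8 points ± 4.58 and 8.84 points ± 4.32. Each of these held on 16 of 16 chromosomes (exact sign-flip test, p = 3.05e-05, adjusted p = 4.07e-05). The share in masked repeats was 3.02 and 3.19% against 3.02 and 3.08%, and its difference did not exceed the spread between chromosomes (−0.0127 points ± 1.305, adjusted p = 0.970, and 0.200 points ± 0.820, adjusted p = 0.395, exact sign-flip test). Coding sequence held 16.2 and 17.9% of gaining CpGs against 11.7% of the others in each family, which was not tested. By the bases next to the CpG, 0.986, 1.11 and 1.06% of low-parent CpGs gained in MEF-1 with A or T on 0, 1 or both sides, and 1.59, 1.52 and 1.36% in MEF-2.

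Genes were counted by the window from 1000 bp before to 500 bp after a transcript start. In MEF-1, 1326 of 12072 protein-coding genes with a low-parent CpG in the window held a gaining CpG (11%), and in MEF-2 1829 of 12139 (15.1%). Both families had a gaining CpG at 465 genes, which is 35.1% of the MEF-1 genes and 25.4% of the MEF-2 genes. Genes with 3 or more gaining CpGs numbered 68 and 219. Genes with many CpGs have more chances to be counted, so the median number of low-parent CpGs per gene, 21 over all genes in each family, is given for comparison with the medians of the lists below.

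Hox cluster genes, which give cells their position along the body axis, held a gaining CpG at 12 of 37 genes in MEF-1 (32.4%) and at 24 of 38 in MEF-2 (63.2%), with a median of 20 and 19 low-parent CpGs. In MEF-1 the most were in Hoxa11, with 4 of 42 low-parent CpGs. In MEF-2 they were Hoxd3 (8 of 82), Hoxa11 (7 of 42), Hoxd11 (6 of 17) and Hoxa10 (5 of 45). Single lines carried much of these counts, which fell to 2 for Hoxa11 in MEF-1 without line 7, and in MEF-2 to 5 for Hoxd3 without line 1, 4 for Hoxa11 and 3 for Hoxd11 without line 5, and 1 for Hoxa10 without line 4. Where the parental line had 40 or more reads, which leaves fewer CpGs, they were 0 for Hoxa11 in MEF-1 and 4 for Hoxd3, 2 for Hoxa11, 0 for Hoxd11 and 0 for Hoxa10 in MEF-2. Over the list, 2.53% of low-parent CpGs gained in MEF-1 and 7.27% in MEF-2, against 0.613 and 0.973% over the windows of all genes. The median gene of the list had a clonal minus parental level of 2.504 points (MEF-1) and 2.78 points (MEF-2) over its low-parent CpGs, against 0.483 and 0.340 points over all genes. The rule chose these CpGs by a low level in the same parental library, which can raise this difference. Here and in the lists below it is therefore a description only. Reads of Hoxa11 and of its antisense gene cannot be assigned to either, since methylation is a property of the DNA.

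Developmental transcription factors outside the Hox clusters held gains at 31 of 91 genes in MEF-1 (34.1%) and at 43 of 90 in MEF-2 (47.8%), with a median of 21 and 20.5 low-parent CpGs. Lhx6, a factor of interneurons, had 5 of 18 low-parent CpGs in MEF-1, and Pax6, the eye and brain regulator, 5 of 58. Sox17, an endoderm factor, had 4 of 32. In MEF-2, En1, a factor of limb and midbrain patterning, had 5 of 11, spread over 6 lines, and Pax5, a B cell factor, had 5 of 33. Without MEF-1 line 3 the counts of Lhx6 and Sox17 were 1 each, without MEF-1 line 6 that of Pax6 was 2, and without MEF-2 line 6 that of Pax5 was 3. With 40 or more parental reads they were 1 for Lhx6, 3 for Pax6, 0 for Sox17, 0 for En1 and 3 for Pax5. Of the low-parent CpGs of the list, 2.65 and 3.25% gained, and the median clonal minus parental level was 1.81 and 1.52 points.

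Neuronal and synaptic genes had gains at 8 of 31 genes in MEF-1 (25.8%) and at 11 of 32 in MEF-2 (34.4%), although their median was 11 low-parent CpGs. Ephb1, an ephrin receptor of axon guidance, had 2 of 27 in MEF-1 and 4 of 24 in MEF-2, and Dpp6, a partner of potassium channels, had 5 of 29 in MEF-2. The MEF-2 counts were 1 for Ephb1 without line 6 and 2 for Dpp6 without line 5, and that of MEF-1 was 1 for Ephb1 without line 3 or line 7. With 40 or more parental reads Ephb1 had 0 in both families and Dpp6 had 2. Over the neuronal list, 2.52 and 5.20% of low-parent CpGs gained, and the median clonal minus parental level was 2.54 and 1.92 points. Signalling genes of the Wnt, TGF-beta, Hedgehog and Notch pathways had gains at 8 of 43 genes (18.6%, median 20 low-parent CpGs) and at 12 of 44 (27.3%, median 18.5), among them the ligands Wnt11 with 3 of 21 in MEF-1 and Bmp2 with 4 of 16 in MEF-2. Over the signalling list, 1.02 and 1.94% of low-parent CpGs gained. Without MEF-1 line 3 Wnt11 had 1, and without MEF-2 line 4 Bmp2 had 2. With 40 or more parental reads they had 1 and 0.

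Genes of the methylation machinery held a gain at 0 of 11 in MEF-1 and at 0 of 12 in MEF-2 (median 21 and 25.5 low-parent CpGs). So short a list cannot show a difference from the 11% and 15.1% of all genes. Senescence and cell cycle genes held a gain at 1 of 18 in MEF-1 (Lmna, of the nuclear lamina) and at 2 of 18 in MEF-2 (Tert, the catalytic part of telomerase, and Cbx7, a Polycomb protein), with medians of 29 and 23.5. Fibroblast and matrix genes held a gain at 1 of 11 (Pdgfra, a growth factor receptor) and 1 of 10 (Col1a1, a collagen chain), with medians of 21 and 25. For genes often hypermethylated in cancer the counts were 2 of 20 and 3 of 21, close to the 11% and 15.1% of all genes, with medians of 23 and 22. Imprinted genes had 2 of 13 and 2 of 16 (medians of 17 and 10), with Phlda2, a placental growth restrictor, at 4 of 31 and 4 of 33 low-parent CpGs (2 in MEF-2 without line 6, and 0 in both families with 40 or more parental reads). Of the low-parent CpGs of the imprinted list 2.52 and 2.59% gained, against 0.613 and 0.973% over all genes. Phlda2 held 4 of these 6 CpGs in each family. Over the senescence, fibroblast and cancer lists these shares were 0.193, 0.395 and 0.338% in MEF-1 and 0.611, 0.388 and 0.852% in MEF-2. Germline genes had 0 of 4 in MEF-1 and 3 of 4 in MEF-2 (Dazl, Tdrkh and Zpbp, with 1 CpG each), too few to compare, with medians of 9 and 5. No list was tested.

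The genes with the most gaining CpGs are given with their lines. Kcnk9, a potassium leak channel, had 11 of 21 low-parent CpGs gaining in MEF-2, over 5 lines (2, 3, 2, 2 and 3 CpGs in lines 1, 4, 5, 6 and 7). Over all its low-parent CpGs the parental level was 3.43% and the clonal lines had 11.5 to 23.7% (median 19.7%). The CpGs were chosen by a low parental level and the gene by its gains, so this order of levels is a description only. At the same 11 CpGs the MEF-1 parental line had 1.21% and the MEF-1 clonal lines 2.07 to 16.1%. Cbln1, an organiser of cerebellar synapses, had 9 of 44, also over 5 lines, with a parental level of 2.99% and clonal levels of 4.89 to 13.1% over the window. With 40 or more parental reads Kcnk9 had 4 gaining CpGs and Cbln1 had 1. Hoxd3 came next.

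MEF-2 had 7 gaining CpGs each in Arhgef26, an activator of RhoG (of 68), Hoxa11, the protocadherin Pcdh17 (of 36) and Rsph1, a radial spoke protein of cilia (of 34), and 6 in Actn2, an actin crosslinker of muscle (of 13). Without 1 line the counts fell to 4 for Arhgef26 (line 4), 4 for Pcdh17 (line 2 or 6), 4 for Rsph1 (line 6) and 3 for Actn2 (line 5), and with 40 or more parental reads they were 0, 4, 5 and 1. At Actn2, line 5 had 36.5% over the window, with a median of 13.1% over the lines and 4.48% in the parental line. Pcdh17 was also partly methylated in MEF-1, with 26.4% in the parental line and 20.98 to 34.1% in the clonal lines at the gaining CpGs.

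In MEF-1, Slc6a5, a glycine transporter, had 6 of 43, over 4 lines. Genes with 5 included Bmp8b, a BMP ligand (of 19), Lhx6, Pax6, the protocadherin Pcdh8 (of 27) and Rab38, a GTPase of melanosome transport (of 10), and Arhgef26 had 4 of 74. Without 1 line the counts fell to 3 for Bmp8b (line 2), 3 for Pcdh8 (line 6 or 7), 3 for Rab38 (line 7) and 2 for Arhgef26 (line 3). With 40 or more parental reads they were 0 for Slc6a5, 3 for Bmp8b, 2 for Pcdh8, 0 for Rab38 and 1 for Arhgef26. Lhx6 drew 4 of its 5 from line 3 and had 1 without it, and in line 3 the window had 24.7% against a median of 10.5% over the lines and 4.40% in the parental line. At Bmp8b the gains fell in 5 lines, and the MEF-2 parental line had 31.0% at these CpGs. Rab38 gained in 4 lines, with a window level of 3.70% in the parental line and 5.86 to 23.02% in the clonal lines. Arhgef26, Hoxa11 and Pax6 thus held several gaining CpGs in both families, and of these CpGs 1, in Pax6, gained in both. Of all MEF-1 gaining CpGs that were low-parent in both families, 7.70% gained in MEF-2 as well. So few CpGs cannot show a difference from that share.

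Gains were spread over all 16 chromosomes. In MEF-1, 0.837% (chromosome 15) to 1.37% (chromosome 7) of low-parent CpGs gained, and in MEF-2 1.23% (chromosome 11) to 1.75% (chromosome 5). Single lines were less even. MEF-1 line 2 had 0.465% on chromosome 14 and 0.183 to 0.295% on the others. MEF-1 line 3 had 0.435% on chromosome 7 and 0.186 to 0.271% on the others. In MEF-1 line 6 it was 0.389% on chromosome 16 and 0.137 to 0.309% on the others. MEF-2 line 3 had 0.204% on chromosome 2 and 0.0491 to 0.161% on the others.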

How the data were processed

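Target capture bisulfite libraries of 2 parental and 14 clonal lines were analysed from the table deposited for the whole series. Per the submitters' processing notes, Trim Galore 0.6.0, Bismark and R 3.6.1 were used with mm10. The authors dropped reads with a mapping quality under 10, trimmed positions biased along the read, combined strands and kept CpGs with 10 or more reads in all 16 libraries, leaving out chromosomes 12, 18, 19, X and Y. Removal of PCR duplicates is not given in the sources used here, so intervals cover counting error only. The deposited counts of methylated and unmethylated reads were used, and the level is methylated reads as a percentage of both. The percent values, the coverage, the CpG number within 100 bp and the fidelity and neighbour scores, which are fractions of clonal lines, were also deposited by the authors and were not used. The 16 files of single libraries were not used, because the table holds their counts at its CpGs.

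CpG density, flanks, repeats and printed sequences were read from the GRCm38 RefSeq assembly, and genes from GENCODE release M21. Of all CpGs in the table, 113 had no CpG at their position in that assembly, and none of these gained. Computation used Python 3.11.15, numpy 2.4.6, pandas 2.3.3, scipy 1.17.1 and matplotlib 3.10.9. Clonal lines or chromosomes were the replicates of exact two-sided sign-flip and permutation tests with Benjamini-Hochberg adjustment, and the scripts were tested on simulated data. CpGs, gene lists and tests were chosen with earlier results of these data known. Named were the 6 runs with the most CpGs (ties by span), the 3 CpGs with the most gaining lines and the 8 genes with the most gaining CpGs of each family, and up to 4 genes of each list, of which some are not reported here. Line numbers do not pair lines across families, because each line grew from its own cell. Alternatives varied thresholds, depth, chromosomes, lines, run definition and promoter window.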

Additional observations from a re-analysis of the deposited data

Results flagged for a closer look

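Of 47 groups of 7 lines examined, 3 had a line far from the others, where chance marks about 1 in 20 groups of values that chose nothing. At the MEF-1 run in Dpysl5, MEF-2 clonal line 1 had a mean level of 16.6%, where the other MEF-2 clonal lines had 0 to 4.94%. The other two concern own-family levels, which chose the CpGs, so they are given as a description and the chance rate does not apply to them. MEF-2 line 3 had 2.88% of its gaining CpGs at 90% or more, against 8.40 to 12.4% in the other MEF-2 lines. The mean level of its gaining CpGs in their own parental line was 6.07% against 5.14 to 5.46%. That line had 452 gaining CpGs, the fewest of MEF-2, and a median of 27 reads per low-parent CpG, and the part of either in these values was not tested.

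The raised level in the other family differed between the families by 4.26 points, larger at gaining CpGs of MEF-1 (exact permutation test of 7 against 7 lines, p = 0.000583, the smallest possible). The test compared different CpGs in different cultures, with lines of the same culture as replicates. Its p-value therefore measures the spread of lines within these cultures and cannot show a difference between families in general. MEF-1 lines shared gaining CpGs, lines 2, 3 and 7 the most in number, and may not be independent, so this p-value may also be too small.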

How the results depend on the processing

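Differences in density, promoters, intergenic sequence and level in the other family kept their direction under every alternative run, while the repeat share, which never passed its test (lowest adjusted p = 0.181, exact sign-flip test), took both signs. In MEF-1 it turned positive on chromosomes 3, 4, 6 and 9 (0.737 points), with 0 methylated parental reads (0.0827), with thinned libraries (0.0406) and without lines 1, 4 and 5 (0.0130), and lay between −0.238 and 0.180 with 1 line left out. In MEF-2 it turned negative with at least 2 gaining lines (−0.419 points), with 0 methylated parental reads (−0.394), on chromosomes 3, 4, 6 and 9 (−0.282) and at 80% or more (−0.244), and lay between 0.0939 and 0.291 with 1 line left out. The cause was not tested. With MEF-1 before MEF-2, gaining CpGs numbered 2171 and 3082 at a parental level under 5%, 1508 and 2271 at 40 or more parental reads, 11508 and 17861 at a clonal level of 50% or more, and 618 and 1225 at 80% or more. They numbered 478 and 672 with at least 2 gaining lines, 10120 and 15578 with clonal libraries thinned to 10 reads per CpG, and 1097 and 1782 on chromosomes 3, 4, 6 and 9. Runs numbered 3 and 3, 0 and 2, 14 and 68, 0 and 2, 0 and 0, 9 and 30, and 2 and 5 under these settings in that order, 2 and 8 with 20 or more reads in the gaining line, and 8 and 25 with 1 CpG that did not gain allowed inside. Under the alternatives chosen after seeing the data, there were 780 and 1094 gaining CpGs and 1 and 0 runs with 0 methylated parental reads, and 1599 and 2021 gaining CpGs and 1 and 1 runs with 20 or more reads in all libraries. Settings on parental level, parental reads, reads in all libraries or chromosomes also leave fewer low-parent CpGs, so these numbers are not shares. Among the genes picked for naming, 39 counts of gaining CpGs per window were 3 or more. Of these, 31 moved by over 1.5 times when 1 line was left out. At 40 or more parental reads, which leaves fewer CpGs, 37 did and 17 were 0. Leaving out 1 line at a time gave 3 to 5 runs in MEF-1 (3 without line 3 or without line 6) and 9 to 13 in MEF-2, and every test kept its side of the threshold. On 4 chromosomes, which cannot give a p below 0.125, the differences were −2.05 and −1.50 CpGs in density, −16.9 and −16.1 points in promoters and 10.2 and 10.4 points in intergenic sequence (exact sign-flip test, adjusted p = 0.167). Without MEF-1 lines 1, 4 and 5 the gaining CpGs of MEF-2 were 13.9 points higher in the remaining MEF-1 lines (exact sign-flip test, p = 0.125, which is as low as 4 lines allow). With line numbers as a replicate block the difference between families was 4.26 points (exact sign-flip test, p = 0.0156). Same-numbered lines correlated between −0.00432 and 0.00353, and 1 of 14 lines correlated best with its own number, so the numbers do not pair lines.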
